A study of Drosophila melanogaster with 6 samples.

Results

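Endosomes are the sorting stations of the cell, where material taken up from outside is sent back to the surface, on to the Golgi or to the lysosome for degradation. Rab proteins are small GTPases that mark each compartment and recruit the proteins that move, tether and fuse it. Vps proteins, named after yeast vacuolar protein sorting mutants, build the coats and tethers of this route, and sorting nexins, encoded by the Snx genes, bind membrane lipids through a PX domain and carry cargo with them. Hemocytes circulate in the blood of Drosophila melanogaster larvae, take up microbes and cell debris and rely on this machinery.

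The set described here held the genes whose symbol in the array annotation starts with Rab, RabX, Vps or Snx followed by a digit. It comprised 59 of 11982 genes, measured by 61 of the 18769 probe sets tested, with the probe set of highest mean log2 value standing for each gene. There were 25 Rab, 27 Vps and 7 Snx genes. The names of 3 Rab entries, Rab3-GAP, Rab3-GEF and Rab3GAP1, belong to regulators of a Rab, which left 22 Rab GTPase genes. Further members of these families were not analysed here, among them the endosomal Rab4, Rab5, Rab7 and Rab11. All 27 Vps and all 7 Snx genes had a mean intensity of at least 100, as did 20 of the Rab genes, whereas 33.7% of all genes fell below it.

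Hemocytes were shaken out of opened wandering larvae of the third instar, without the lymph gland. In the 3 Idh-R195H samples the hemocyte driver hml-Gal4 expressed both the fluorescent reporter UAS-2xEGFP and the transgene UAS-Idh-R195H. The 3 control samples carried hml-Gal4 and UAS-2xEGFP alone, with no UAS transgene in place of Idh-R195H. Idh encodes isocitrate dehydrogenase, and the R195H change is the fly counterpart of a human IDH1 mutation found in gliomas and leukemias. Each sample pooled the cells of 400 larvae, which grew at 29 °C until day 7, and gave 1 array. The driver acts in cells that express hml, a gene of plasmatocytes, and the labels describe no sort.

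The array medians lay between intensities of 76.6 and 83.7 in Idh-R195H and between 80.5 and 107 in control samples. The Idh probe set read 11051, 9490.5 and 9359.7 on the Idh-R195H arrays, against 3805, 4006 and 4293 on the control arrays, which is the direction the labels imply. The plasmatocyte marker Hml, which defines the driver's cells, was bright on all arrays, at 14685 to 17483 in Idh-R195H and 12663 to 22127.5 in control samples. Markers of other cell types differed between the groups. The summed intensity of 9 lamellocyte markers, all higher in Idh-R195H and 8 past the test, was 73266 to 85537 in Idh-R195H and 6186 to 7318 in control samples. That of 7 salivary gland markers, all lower in Idh-R195H and 1 past the test, was 1064 to 5149.7 in Idh-R195H samples, 23833 in control replicate 1, and 244888 and 250148 in control replicates 2 and 3. The 4 fat body markers summed to 6296, 19105 and 55853 in Idh-R195H samples and to 44374, 122474 and 101508 in control samples, and none passed. The sums were 31196 to 53664 in Idh-R195H and 71193 to 73464 in control samples for 7 crystal cell markers, of which 6 were lower in Idh-R195H, with fok past the test (0.243-fold), and CG17109 was higher and past the test (6.49-fold). They were 118809 to 122912 in Idh-R195H and 108202 to 178632 in control samples for 13 plasmatocyte markers, of which 5 were higher and 8 lower in Idh-R195H, with log2 fold changes between -3.05 for NimC2 and 1.81 for NimC4 and none past the test. For 9 midgut markers, 2 higher and 7 lower with none past the test, they were 360 to 1107 in Idh-R195H and 1285 to 31995 in control samples. No marker was listed at 0. The ratio of 3' to 5' signal for Act5C, which is higher where RNA is degraded or incompletely copied, was 2.39, 2.32 and 2.14 on Idh-R195H arrays and 3.72, 4.45 and 6.17 on control arrays. In such bulk samples fewer cells of a type and less RNA per cell cannot be told apart, and the part of these differences in the results below was not tested.

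Of the 59 genes, the sorting nexin genes Snx17 and Snx21 rose in Idh-R195H hemocytes and none fell at an adjusted p below 0.05 (limma, Benjamini-Hochberg over all probe sets, of which 3.11% passed in either direction). Higher calls made up 2.30% of all genes and lower calls 1.48%, so a count of 2 in 59 is near that background and says nothing about the set as a whole. At an unadjusted p below 0.05 in limma, 10 of the genes were higher and none lower, against 9.62% and 12.0% of all genes. Of the 7950 genes with a mean intensity of at least 100, 979 were higher and 911 lower. The median log2 fold change was 0.61 for Snx genes, 0.22 for Vps genes and -0.07 for Rab genes, beside -0.07 for all genes. Positive values were found for 7 of 7 Snx genes, 26 of 27 Vps genes and 10 of 25 Rab genes, against 44.8% of all genes. The share was 49.6% among all genes with a mean intensity of at least 100. No test was made of the difference between families. The deposited scaling sets the zero of these values, so the distance from the median of all genes is given as well. It was 0.69 for Snx, 0.29 for Vps and 0.00 for Rab genes with the deposited scaling, and 0.59, 0.23 and -0.07 after quantile normalization. Without probe sets of mean intensity below 100 it was 0.62 for Snx, 0.22 for Vps and -0.03 for Rab genes.

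**Figure D1:**
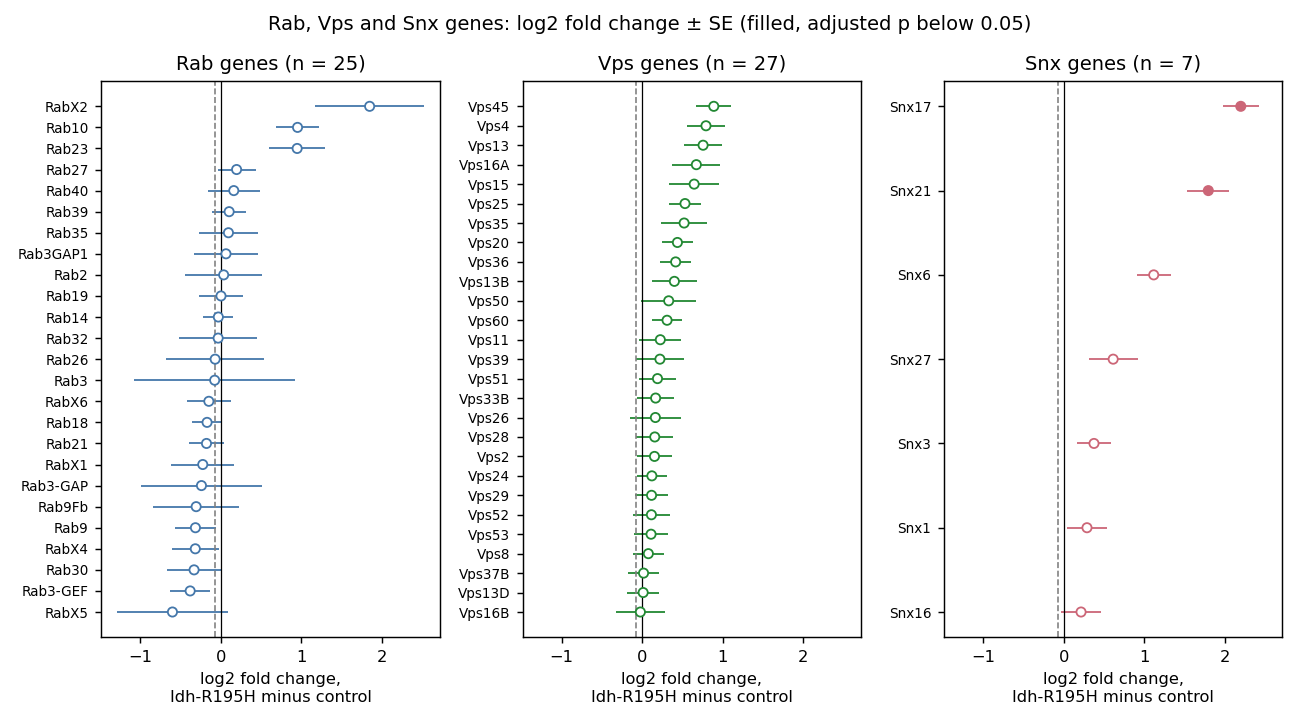
Log2 fold change of each gene, Idh-R195H minus control, with limma's standard error (bars), in 1 panel per family; filled points passed an adjusted p below 0.05, the solid line is 0 and the dashed line the median of all genes (-0.07). Snx17 and Snx21 are the filled points, Vps genes lie almost all to the right of 0 and Rab genes on both sides.

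Snx17 (CG5734) had the largest log2 fold change of the set. Its mammalian counterpart binds the tails of integrins and other receptors on endosomes and returns them to the cell surface. The probe set read 12707, 12829.9 and 12604 on the Idh-R195H arrays, against 3418.5, 2659.8 and 2334 on the control arrays. The Idh-R195H values lay within a narrow band, far above the highest control value. This was a 4.59-fold difference, a log2 fold change of 2.20 ± 0.22 (SE, n = 3 each) with an adjusted p of 0.0112 in limma. Over 15 alternative settings the log2 fold change ran from 2.08 to 3.25 and the adjusted p from 0.000666 to 0.124. Leaving out control replicate 2 took the call away (limma adjusted p = 0.0583), as did leaving out Idh-R195H replicate 1, 2 or 3 (0.0756, 0.0810 and 0.0668), while the log2 fold change stayed between 2.17 and 2.20.

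Snx21 (CG3077), another PX-domain gene, rose 3.47-fold. It had intensities of 1841, 1617 and 1482 in Idh-R195H samples, against 629, 405 and 412 in control samples. Every Idh-R195H value was above every control value by more than the spread of either group. The log2 fold change was 1.80 ± 0.26 (SE, n = 3 each) with an adjusted p of 0.0294 in limma, which ran from 0.00274 to 0.140 over the alternatives. Its call held without control replicate 1 (0.0218). It was lost without control replicate 2 or 3 (limma adjusted p = 0.104 and 0.0708) and without Idh-R195H replicate 1, 2 or 3 (0.129, 0.131 and 0.100), at log2 fold changes of 1.69 to 1.87.

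Snx6 (CG8282), a membrane-bending nexin that works with retromer in yeast and mammals, stood just short of the threshold. It read 9089, 9318 and 8923 in Idh-R195H samples, against 4962, 4163 and 3576 in control samples. The groups were apart, by 1.12 ± 0.21 on the log2 scale (SE, limma adjusted p = 0.0571). Snx6 passed in 5 of 15 alternatives, among them leaving out dim probe sets (0.0141) and leaving out control replicate 1 (0.0390), and its adjusted p reached 0.217 without Idh-R195H replicate 2.

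The other 4 sorting nexins differed less and did not pass. Snx27 (CG32758), whose mammalian counterpart links PDZ-binding cargo to retromer, was at 1306, 1508 and 1529 in Idh-R195H samples, against 1181, 1116 and 636 in control samples. A dimmer Snx27 probe set, at 141, 131 and 157 against 126, 157 and 61.9, had a log2 difference of 0.41 ± 0.38 (SE) beside 0.61 ± 0.30 for the brighter one. Snx3 (CG6359), which acts with retromer in the recycling of the Wnt carrier Wntless, was at 13185, 12827 and 13329 in Idh-R195H samples, against 11777, 10109.9 and 8653 in control samples. Both genes had groups that did not overlap on the brighter probe set, and a low control replicate 3. Snx1 (CG2774), the partner of Snx6 in the retromer coat, had 6145, 6039.9 and 6321 in Idh-R195H samples, against 6411, 5111 and 3921 in control samples. Snx16 (CG6410), a nexin of endosomes known from the fly neuromuscular junction, had 296, 281 and 297, against 329, 213 and 225. For these last genes all Idh-R195H arrays lay inside the control range, with control replicate 1 above them.

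**Figure D2:**
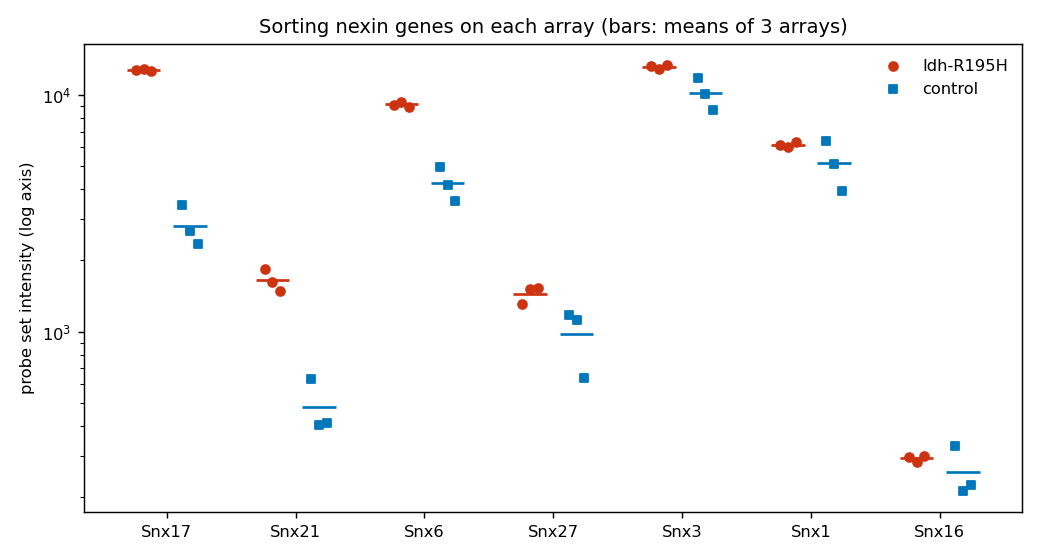
Probe set intensity (log axis) of the 7 sorting nexin genes on each of the 6 arrays, Idh-R195H (circles) left of control (squares), with horizontal bars for the means of 3 arrays; levels of different genes are not comparable. Idh-R195H arrays sit close together, at 12604 to 12829.9 for Snx17, while control arrays are spread below them or, for Snx1 and Snx16, on both sides.

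Vps genes leaned upward by small amounts and none passed. Their log2 fold changes ran from -0.02 to 0.89. For 10 of the 27 genes every Idh-R195H array exceeded every control array and for none the reverse held, against 14.9% above and 16.7% below for all genes, and 19.7% and 16.8% for the 7950 genes with a mean intensity of at least 100. In the whole set of 59 these counts were 18 above and 1 below. After quantile normalization 26 Vps genes were positive, with Vps16B turned upward and Vps37B downward, both near 0, beside 51.4% of all genes. Centring on array medians and scaling on the hybridisation controls move all genes up by the same amount, so the 27 positive Vps genes there, beside 63.1% and 88.3% of all genes, say nothing more about the sign.

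The upward lean of the Vps genes depended on which control arrays were used. It held in 21 of 27 genes without control replicate 3, where the family median was 0.14 and that of all genes 0.00. Set against control replicate 1 alone, a comparison chosen after seeing the data, 15 of 27 Vps genes were positive with a median of 0.06, beside 47.4% and -0.05 for all genes. Against control replicates 2 and 3 alone the count was 24 of 27 each, with medians of 0.31 and 0.38. Of all genes, 45.6% and 43.8% were positive there, with medians of -0.08 and -0.15. For Snx genes the medians against control replicates 1, 2 and 3 alone were 0.29, 0.45 and 1.18, and 5, 7 and 7 of the 7 genes were positive. These comparisons rest on a lone control array, so only medians and signs are given. Control replicate 1 had the lowest salivary gland sum of the control arrays (23833) and the lowest Act5C ratio (3.72), and control replicate 3 had the highest of both (250148 and 6.17). The salivary gland sum of control replicate 2 was close to that (244888), and its fat body and midgut sums were the highest (122474 and 31995). Another actin probe pair did not rank the arrays so. Its 3' and 5' signals were 28951 and 14764 in control replicate 1, and 21619 and 11426 in control replicate 3. The part of these in the lean was not tested.

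Among the Vps genes the 4 largest log2 fold changes belonged to different steps of the route. Vps45 (CG8228), a Sec1/Munc18 protein that guides SNARE fusion at endosomes, was at 355, 351 and 325 in Idh-R195H samples, against 208, 153 and 199 in control samples. Its log2 fold change was 0.89 ± 0.21 (SE) with an adjusted p of 0.0987 in limma. Vps4 (CG6842), the ATPase that takes ESCRT-III filaments apart, was at 1575, 1692 and 1619 in Idh-R195H samples, against 1129, 993 and 743 in control samples, a log2 fold change of 0.79 ± 0.23 (SE). Both had groups that did not overlap.

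Vps13 (CG2093), a bridge-like lipid transfer protein, was at 1956, 2164 and 1800.4 in Idh-R195H samples, against 1378, 1244 and 925 in control samples (log2 fold change 0.75 ± 0.24, SE). Vps16A (CG8454), a core subunit shared by the HOPS and CORVET tethers, was at 1821, 1739 and 1785 in Idh-R195H samples, against 1546, 1159 and 781 in control samples (0.67 ± 0.30). For both, control replicate 1 came closest to the Idh-R195H arrays. The limma adjusted p of Vps4, Vps13 and Vps16A was 0.144, 0.161 and 0.283.

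Retromer, the coat that returns receptors from endosomes to the Golgi or the surface, has a core of Vps26, Vps29 and Vps35. Vps35 (CG5625) was at 3530.4, 3545 and 3365 in Idh-R195H samples, against 3134, 2676 and 1705 in control samples. Its Idh-R195H arrays were all above the control arrays, at a log2 fold change of 0.52 ± 0.28 (SE) that did not pass (limma adjusted p = 0.380). Vps26 (CG14804) was at 2231, 2442 and 2839 in Idh-R195H samples, against 3210.2, 2224 and 1546 in control samples, so the Idh-R195H arrays fell inside the control range. Without control replicate 3 its log2 fold change turned from 0.16 to -0.10. Vps29 had 0.11 ± 0.20 (log2 fold change, SE). In all 3 core genes and in Snx1, Snx3, Snx6 and Snx27, control replicate 3 was the lowest control array. The same held for 38.4% of all genes and 42.3% of those with a mean intensity of at least 100. It also held for 16 of the 18 genes of clathrin-mediated endocytosis described below.

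ESCRT complexes sort ubiquitin-tagged receptors into the inner vesicles of late endosomes and are measured here by 9 genes, including Vps4. Among all genes, 44.8% were positive and 14.9% had Idh-R195H arrays all above control. These shares were 49.6% and 19.7% for genes with a mean intensity of at least 100. All 9 ESCRT genes were positive, with a median log2 fold change of 0.31, and 5 had Idh-R195H arrays that were all above control. The ESCRT-II subunits Vps25 and Vps36 were among these 5, at log2 fold changes of 0.53 ± 0.20 and 0.41 ± 0.19 (SE). Of the ESCRT-III subunits, Vps20 had 0.44 ± 0.19 and Vps60 had 0.31 ± 0.19 (log2 fold change, SE), both with separate groups. Vps60 (CG6259) read 5532, 5224 and 5117 in Idh-R195H samples, against 4556, 4168 and 4108 in control samples. Vps2 (CG14542), at 4086, 3987 and 3995 in Idh-R195H samples and 4249, 3817 and 2929.7 in control samples, and Vps24, at a log2 fold change of 0.12 ± 0.19, overlapped. The ESCRT-I subunits Vps28 and Vps37B had 0.15 ± 0.23 and 0.02 ± 0.19. Vps37B (CG1115) was at 1853, 1590.2 and 1622 in Idh-R195H samples, against 1772, 1602 and 1630.3 in control samples, and neither group stood above the other.

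The HOPS and CORVET tethers, which bring endosomes and lysosomes together before fusion, had 4 measured Vps genes, all positive, beside 44.8% of all genes. Beside Vps16A, Vps11 had a log2 fold change of 0.22 ± 0.26 and the HOPS subunit Vps39 one of 0.22 ± 0.30 (SE). The CORVET subunit Vps8 (CG10144) was at 501, 491 and 521 in Idh-R195H samples, against 485, 435 and 519 in control samples. Vps16B (CG18112), which pairs with Vps33B, was at 258, 208 and 142 in Idh-R195H samples, against 217, 159 and 232 in control samples, the only negative Vps value (log2 fold change -0.02 ± 0.31). It was positive in 6 alternatives, among them each of the rescalings, and Vps33B had 0.17 ± 0.23.

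GARP and EARP, tethers for vesicles that arrive at the Golgi and at recycling endosomes, were represented by Vps50, Vps51, Vps52 and Vps53. Their log2 fold changes lay between 0.11 and 0.33 and all 4 had overlapping groups. Vps15, the regulatory kinase of the class III PI3-kinase that makes the endosomal lipid PI3P, had 0.64 ± 0.31 (log2 fold change, SE) with separate groups. The Vps13 relatives Vps13B and Vps13D had 0.40 ± 0.28 and 0.01 ± 0.20, and Vps13D (CG32113) read 224, 233 and 209 in Idh-R195H samples, against 242, 228 and 192 in control samples.

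**Figure D3:**
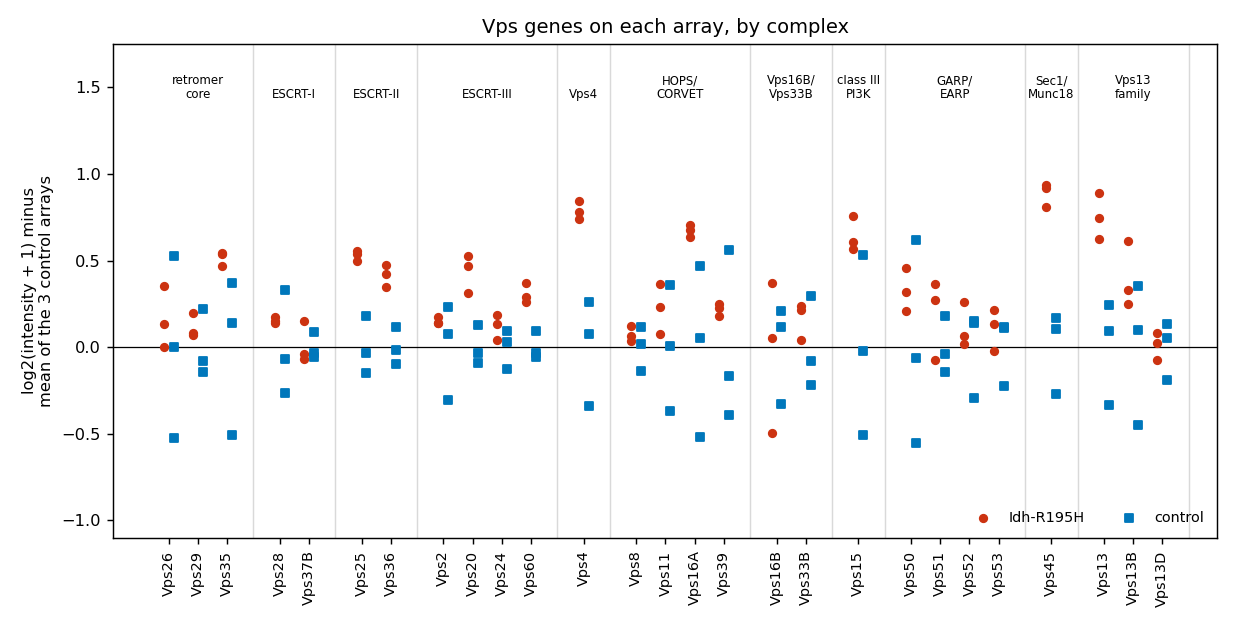
Log2(intensity + 1) of the 27 Vps genes on each array minus the mean of the 3 control arrays, grouped by complex, with Idh-R195H (circles) left of control (squares). Vps45, Vps4, Vps25 and Vps36 have circles above all squares, whereas the retromer genes Vps26 and Vps29 have circles within the range of the squares.

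The Rab genes measured here did not lean upward. None passed, 10 of 25 were positive, and the median log2 fold change was -0.05 for the 22 GTPases alone. The Idh-R195H arrays lay inside the range of the control arrays in 14 of 25 Rab genes, against 8 of 27 Vps genes and 33.8% of all genes. Of the Rab genes, 3 had Idh-R195H arrays above all control arrays and 1 below them, against 14.9% and 16.7% of all genes. After centring on array medians 19 of 25 were positive and after scaling on the hybridisation controls 25, in step with the median of all genes, which moved to 0.19 and 0.97.

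Rab10 (CG17060), which directs polarised secretion, among others of basement membrane proteins in the fly ovary, was the Rab gene nearest the threshold. It had 4788, 4791 and 5120.2 in Idh-R195H samples, against 3340.3, 2544 and 1912 in control samples. The groups were well apart and the log2 fold change was 0.95 ± 0.26 (SE, adjusted p = 0.130 in limma), passing in 3 of 15 alternatives. Rab23 (CG2108), known in the fly from planar polarity and in the mouse from Hedgehog signalling, was at 197, 228 and 199 in Idh-R195H samples, against 164, 69.4 and 108 in control samples (0.95 ± 0.35). RabX2 (CG2885) was dim, at 97.2, 66.5 and 37.6 in Idh-R195H samples and 6.08, 21.1 and 34.3 in control samples, so its log2 fold change of 1.85 ± 0.68 depends on the added constant. The 3 genes had limma adjusted p-values of 0.130 to 0.212.

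Rab27 (CG14791), a regulator of secretory granules, was at 121, 175 and 145 in Idh-R195H samples, against 123.3, 113 and 145 in control samples, with a log2 fold change of 0.19 ± 0.24. Rab14 (CG4212), which acts in phagosome maturation in fly hemocytes, had overlapping groups. It read 1745, 1717 and 1680.4 in Idh-R195H samples, against 1903, 1703 and 1661 in control samples, a log2 fold change of -0.03 ± 0.19 (SE). Rab18, a Rab of lipid droplets and the endoplasmic reticulum, was the only gene of the set with Idh-R195H arrays below all control arrays, at 1537, 1435 and 1525 against 1842, 1566 and 1668. It is singled out after its values were seen, and its log2 fold change of -0.17 ± 0.19 was small. Among the endosomal Rabs measured here, Rab21, Rab35 and Rab9 had log2 fold changes of -0.18 ± 0.22, 0.09 ± 0.37 and -0.32 ± 0.25.

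Another 9 Rab genes had overlapping groups and are given by their fold changes. Their log2 fold changes ran from -0.31 to 0.16, with Rab40 at 0.16 ± 0.32, Rab39 at 0.10 ± 0.21, Rab2 at 0.03 ± 0.48 and Rab19 at 0.00 ± 0.28 (SE). The negative ones were Rab26 at -0.07 ± 0.61, Rab3 at -0.08 ± 1.00, RabX6 at -0.15 ± 0.27, RabX1 at -0.23 ± 0.39 and Rab9Fb at -0.31 ± 0.53. Rab2 is a Rab of the Golgi and of lysosome fusion in the fly, and Rab3 and Rab26 are known from synaptic and secretory vesicles. Rab3 and Rab26 were dim, with standard deviations over control arrays of 2.05 and 0.72 on the log2 scale.

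The 4 lowest log2 fold changes of the Rab family did not pass the test. RabX5 (CG7980) was near the bottom of the intensity range, at 15.8, 4.36 and 16.6 in Idh-R195H samples, against 37.1, 14.0 and 8.67 in control samples (log2 fold change -0.60 ± 0.69, SE). Rab30 (CG9100), a Golgi Rab, was at 452, 404 and 492, against 883, 513 and 397 (-0.33 ± 0.34). RabX4 (CG31118) was at 335, 229 and 195.5, against 257, 300.2 and 378 (-0.32 ± 0.29). Rab3-GEF (CG5627), an exchange factor that loads Rab3 with GTP, was at 53.3, 56.8 and 72.7 in Idh-R195H samples, against 87.7, 89.6 and 62.6 in control samples (-0.38 ± 0.25). In all 4 the groups overlapped.

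Rab3-GAP (CG7061), a subunit of the complex that activates the GTPase of Rab3, was the most uneven of the brighter genes. It read 2023, 1892 and 1621 in Idh-R195H samples but 744, 2222 and 6199 in control samples. The Idh-R195H arrays lay inside the control range and the log2 fold change was -0.24 ± 0.76 (SE). Without control replicate 3 it was 0.51. The other subunit gene, Rab3GAP1, had a log2 fold change of 0.06 ± 0.40. Rab32, a Rab of pigment granules and other lysosome-related organelles, was likewise uneven, at 1215, 1068 and 1362 in Idh-R195H samples and 659, 2389 and 1206 in control samples. Rab32 too is shown after its values were seen. Both genes were lowest in control replicate 1, the control array with the lowest salivary gland sum, and the part of other tissues in these values was not tested.

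The 2 groups differed in how closely their arrays resembled each other. The standard deviation of the log2 value was larger over the control arrays than over the Idh-R195H arrays in 51 of 59 genes, including all 7 Snx and 24 of 27 Vps genes. The share was 77.5% of all genes and 86.0% of those with a mean intensity of at least 100, which is near the share in the set. The median standard deviation was 0.03 in Idh-R195H and 0.34 in control samples for Snx genes, 0.08 and 0.27 for Vps genes, and 0.17 and 0.53 for Rab genes. The control arrays also ranked alike in many genes. Control replicate 1 was the highest control array in 44 of 59 genes, against 43.3% of all genes, and control replicate 3 the lowest in 34, against 38.4% of all genes.

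**Figure D4:**
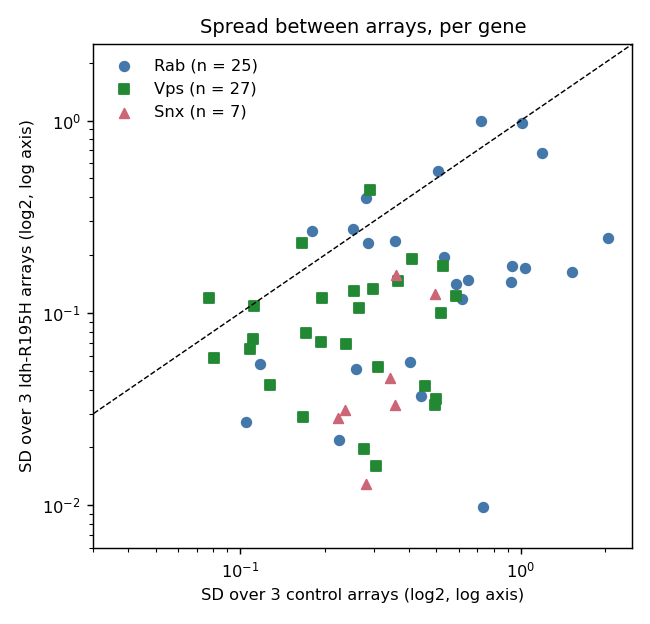
Standard deviation of the log2 value over the 3 Idh-R195H arrays (vertical, log axis) against that over the 3 control arrays (horizontal, log axis) for each Rab, Vps and Snx gene; the dashed line marks equal spread. Of 59 points, 51 lie below the line, with the 7 Snx genes all below it.

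Partners of these proteins were described from lists of genes whose symbols do not match the naming pattern. Of 19 regulators and binding partners of Rabs, 13 were positive and only plx passed, upward. Of all genes, 44.8% were positive, as were 49.6% of those with a mean intensity of at least 100, and 2.30% were called higher. The gene plx (CG42612) encodes a protein with a TBC domain, the fold of Rab GTPase-activating proteins. It read 5036, 5776 and 6135 in Idh-R195H samples, against 509, 606 and 431 in control samples, an 11.0-fold rise (log2 fold change 3.46 ± 0.23, SE, limma adjusted p = 0.00460). Another, dim probe set of plx, at 24.3 to 38.3 in Idh-R195H and 18.8 to 58.4 in control samples, did not differ beyond its error (-0.24 ± 0.45), and the call was lost without Idh-R195H replicate 2 (limma adjusted p = 0.0549). The next largest value of the list was that of nuf, an adaptor of recycling endosomes, with 1.39 ± 0.32 (limma adjusted p = 0.0888) and a dimmer probe set at 0.20 ± 0.19.

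Of 18 genes of clathrin-mediated endocytosis, 14 were positive and Synj passed, against 44.8% positive and 2.30% called higher among all genes. Synj (CG6562), synaptojanin, a lipid phosphatase that helps to strip the coat from new vesicles, was at 2946, 3086 and 2773 in Idh-R195H samples, against 1125, 887 and 622 in control samples. All Idh-R195H arrays were higher, by 3.43-fold (log2 fold change 1.78 ± 0.27, SE, limma adjusted p = 0.0345). EndoA, the endophilin that recruits it, had 0.82 ± 0.37 and did not pass (limma adjusted p = 0.297). Of the class III PI3-kinase partners, Uvrag (CG6116), which joins the kinase to endosomal tethering, rose to 1225, 1367 and 1234 in Idh-R195H samples, against 634, 487 and 476 in control samples. Its log2 fold change was 1.27 ± 0.21 with a limma adjusted p of 0.0427, while the catalytic gene Pi3K59F had 0.13 ± 0.32. The calls of Synj and Uvrag were lost when any array other than control replicate 1 was left out, with limma adjusted p-values of 0.0547 to 0.152 for Synj and 0.0872 to 0.186 for Uvrag, and also after quantile normalization (0.0505 for Synj and 0.0641 for Uvrag), after centring on array medians (0.0501 and 0.0795) and with the replicate block (0.146 and 0.184).

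In the remaining lists no gene passed. Positive values were found for 44.8% of all genes and 49.6% of those with a mean intensity of at least 100. All 8 ESCRT genes with other names were positive, with a median log2 fold change of 0.41, led by ALiX at 0.78 ± 0.21 and the ESCRT-II gene lsn at 0.55 ± 0.22 (SE). The HOPS genes dor and car had log2 fold changes of 0.39 ± 0.34 and 0.25 ± 0.35. The gene scat, which encodes the fourth GARP subunit, was higher than the GARP genes above, at 1.09 ± 0.26 (limma adjusted p = 0.0964). Of 5 WASH genes, which build actin on endosomes for retromer, 4 were positive, with FAM21 at 0.53 ± 0.21 and CCDC53 at -0.37 ± 0.24.

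**Figure D5:**
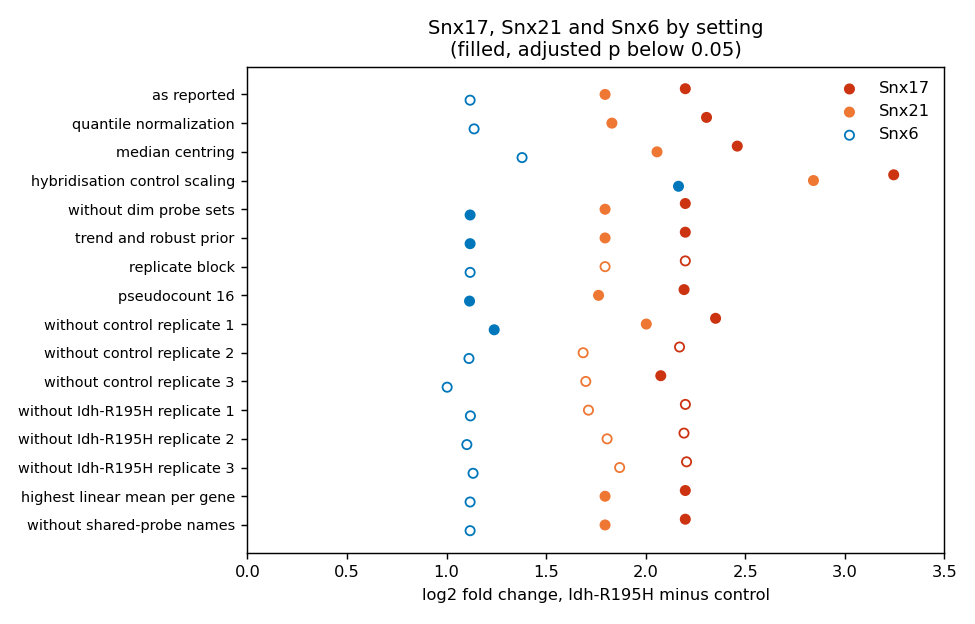
Log2 fold change of Snx17, Snx21 and Snx6 as reported and under each of 15 alternative settings, with filled points where the adjusted p was below 0.05. Snx17 is the highest and Snx6 the lowest in each setting, all 3 are highest after scaling on the hybridisation controls, and the open points of Snx17 and Snx21 are those with the replicate block, without control replicate 2 and without each Idh-R195H array, and for Snx21 also without control replicate 3.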

How the data were processed

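Biotin-labelled RNA of 6 hemocyte pools was measured on 1-colour arrays, 1 per pool. The authors deposited 1 linear intensity per probe set and array. Partek 6.0 is named, without a role, per the submitters' processing notes, and the summarisation method is not given in the sources used here. From the values, each array has a trimmed mean of 500.0 (2% left out at each end), so a change in many bright probe sets shifts all others. Of 18952 probe sets, 183 array controls were left out. Genes were named from the platform annotation, by single symbols only, and all 59 matched a RefSeq gene table by gene identifier. Of the 59 probe sets used for them, 10 have names that mark probes matching several transcripts (suffix _a or _s). Values were analysed as log2(intensity + 1), which understates the change of dim genes, with limma 3.58.1 (R 4.3.3), Idh-R195H minus control, two-sided, with Benjamini-Hochberg adjustment over 18769 probe sets. The number of arrays limits the precision. The labels call the samples biological replicates.

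Values on every array are given for genes that passed, the 4 largest increases and decreases and the 3 brightest genes of each family, and Vps4, Vps26 and Vps35. From the lists of partner genes, those that passed and the 2 largest differences are named. Genes and lists were chosen with earlier results of these data known. Replicate numbers were not treated as pairs, since deviations of same-numbered arrays correlated at 0.03, 0.02 and -0.07. Alternatives were other scalings, a filter on dim probe sets, another prior, constant or probe set, the replicate block, leaving out each array and, added after seeing the data, each control array alone. The fit was tested on simulated arrays.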

Additional observations from a re-analysis of the deposited data

How the results depend on the processing

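The number of genes of the set that rose was 2, and ran from 0 to 3 when each array was left out, with 0 without control replicate 2 or any Idh-R195H array, 1 without control replicate 3 and 3 without control replicate 1. It was 0 with the replicate block, where no probe set of the array was called, 4 with a trend and robust prior, 5 without dim probe sets and 47 after scaling on the hybridisation controls. Of all 11982 genes, 275 were called higher as reported, 537 with the trend and robust prior and 5271 after hybridisation control scaling. Without dim probe sets 587 of the genes kept were called higher, and 10 to 408 genes when each array was left out. With control replicate 1, 2 or 3 as the only control it was 1, 1 and 6, and 1 gene, Rab3-GAP, was called lower against the third. The lone array was assumed to vary like the others. Among all genes too, more were called in each direction against control replicate 3 alone than against control replicate 1 or 2 alone. These counts therefore say nothing about the set in particular. In the other settings no gene of the set was called lower. Of all probe sets, 584 were called, against 888 with a constant of 16, 1253 with a trend and robust prior, 1297 when dim ones were left out, 7179 with hybridisation control scaling and 11 to 870 when each array was left out. The family medians of the log2 fold change, for Rab, Vps and Snx genes, were 0.19, 0.48 and 0.88 after centring on array medians, and 0.97, 1.27 and 1.66 after scaling on the hybridisation controls, where the median of all genes was 0.97. They were -0.38, 0.056 and 0.29 against control replicate 1 alone, and 0.38 and 1.18 for Vps and Snx genes against control replicate 3 alone. The medians of all genes were -0.05 and -0.15 in these 2 comparisons. Leaving out each array gave medians of -0.19 to 0.03 for Rab, 0.14 to 0.35 for Vps and 0.33 to 0.78 for Snx genes, and without probe sets marked as matching several transcripts the Snx median was 0.87. The replicate block also took away the calls of Snx17 (adjusted p = 0.124 in limma), Snx21 (0.140), plx (0.0947), Synj (0.146) and Uvrag (0.184).

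Single genes were followed through the settings where the naming rule gives their values on every array, or names them as partners. Some of these that had not passed changed sign, and so did plx when another probe set stood for it. Scaling on the hybridisation controls and centring on array medians move all genes up alike, which by construction turned low values positive, so that 25 and 19 of 25 Rab genes were positive there. Of the genes followed, those turned by the hybridisation controls were RabX5 (0.44), Rab3-GEF (0.66), CCDC53 (0.68), Rab30 (0.71), RabX4 (0.73), Rab3-GAP (0.80), Rab14 (1.01) and Vps16B (1.02). Those turned by centring were Rab3-GAP (0.019), Rab14 (0.23) and Vps16B (0.24), and after quantile normalization Vps37B (-0.039) and Vps16B (0.083). Leaving out each array in turn gave -0.053 to 0.060 for Vps37B, -0.085 to 0.079 for Vps13D, -0.22 to 0.21 for Vps16B, -0.071 to 0.027 for Rab14, -0.0016 to 0.27 for Vps2, -0.094 to 0.42 for Pi3K59F, -0.10 to 0.43 for Vps26 and -1.01 to 0.51 for Rab3-GAP, where the last 4 turned without control replicate 3. Without probe sets marked as matching several transcripts, plx was represented by its dim probe set (-0.24). The cause of the other changes was not tested, apart from those made by fewer arrays.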
